A study of Mus musculus with 8 samples.

Results

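The glutathione and antioxidant genes of the embryonic mouse kidney were compared between embryos without p53 and wild-type embryos. The group holds the glutathione transferases of the alpha, mu, omega, pi and theta classes, the glutathione peroxidases, the peroxiredoxins, the superoxide dismutases, the thioredoxin reductases, and 12 further genes named one by one, among them the regulators Nfe2l2 and Keap1. The rule that finds the members uses gene symbols and no measured value. They came to 50 of the 17305 genes that the arrays named, on 65 probes, and 44 of them were measured well enough to test, on 57 probes.

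Glutathione is a small thiol peptide that cells use to reduce peroxides and to tag reactive compounds for export. The glutamate-cysteine ligase made of Gclc and Gclm starts its synthesis, Gss completes it and Gsr returns the oxidized form to the reduced one. Peroxidases and peroxiredoxins spend glutathione or thioredoxin on peroxides, and transferases join glutathione to electrophiles. Nfe2l2 encodes NRF2, the transcription factor that binds antioxidant response elements in many of these genes, and Keap1 encodes the adaptor that marks NRF2 for degradation. p53, the product of Trp53, is a transcription factor known to act on redox genes in both directions.

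Kidneys of p53 null embryos were hybridised against kidneys of p53 wild-type embryos, all of the C57BL/6 strain at embryonic day 15.5. Each of the 8 arrays carried RNA of both genotypes, one in Cy5 and the other in Cy3. Of these, 4 arrays belong to replicate 1, as a dye swap and its duplicate, and a dye swap of 2 arrays belongs to each of replicates 2 and 3. By the labels the replicates are biological ones. The sources used here do not say how the null allele was made or how many embryos were pooled. Ratios are log2 of null over wild type, averaged over both dye orientations, so that a positive value means more signal in null kidneys.

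Some facts of the series bear on every value below. Replicate 1 was hybridised on slide 1 and scanned as scan 1, and replicates 2 and 3 on slide 2 as scan 2, so slide and replicate cannot be told apart in the contrast of replicate 1 with the other two. The deposited file names number the wild-type RNA of replicates 2 and 3 alike. Wild-type signal of replicates 2 and 3 differed with an SD of 0.11 on the log2 scale over 20880 probes, against 0.12 between the 2 pairs of replicate 1, which come from the same extracts, and 0.17 for null signal of replicates 2 and 3. Replicates 2 and 3 may therefore share a wild-type extract, in which case the 3 ratios are not fully independent. Over the 20880 probes, ratios of replicate 1 had a correlation of 0.06 with those of replicate 2 and −0.15 with those of replicate 3. Between replicates 2 and 3 it was 0.93. In bulk kidney, fewer cells of a type and less RNA per cell cannot be told apart. The brighter Trp53 probe had ratios of −1.08, −0.47 and −0.45 in the 3 replicates, and the dimmer one 0.01, 0.28 and 0.18. Of 13 embryonic kidney markers, 11 were measurable in the tissue, with Ret and Hoxd11 not.

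With limma and Benjamini-Hochberg adjustment over 20880 probes, 0 of the 44 members passed an adjusted p of 0.05, and neither did any other gene (0% of 12008 genes). The smallest adjusted p among members was 0.279. At an unadjusted p under 0.05, 4 members were higher in null kidneys, 9.09% of those tested against 9.24% of all genes, and 1 was lower, 2.27% against 8.93%. The share of higher members was thus close to that of all genes. Members were higher in all 3 replicates in 8 cases, 18.2% against 20.4% of all genes, and lower in all 3 in 6, 13.6% against 19.7%. The higher ones were Prdx1, Srxn1, Txnrd1, Gsta3, Sod2, Gsr, Nqo1 and Gpx2, and the lower ones Gstt3, Gstt1, Gstm2, Gstm3, Nfe2l2 and Prdx4. Some of these signs rest on a ratio near 0. Replicate 1 gave 0.002 for Gpx2, 0.003 for Nqo1, −0.0005 for Gstm2 and −0.015 for Gstt1, and replicate 3 gave 0.003 for Gsr. For some, such as Gstm3 and Prdx4, the dye orientations of replicate 1 differed in sign. The median ratio of members was −0.02, against 0.00 over all genes, and the median size of a ratio was 0.11 against 0.15. A sign permutation over 3 replicates could not go below p = 0.25.

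**Figure D1:**
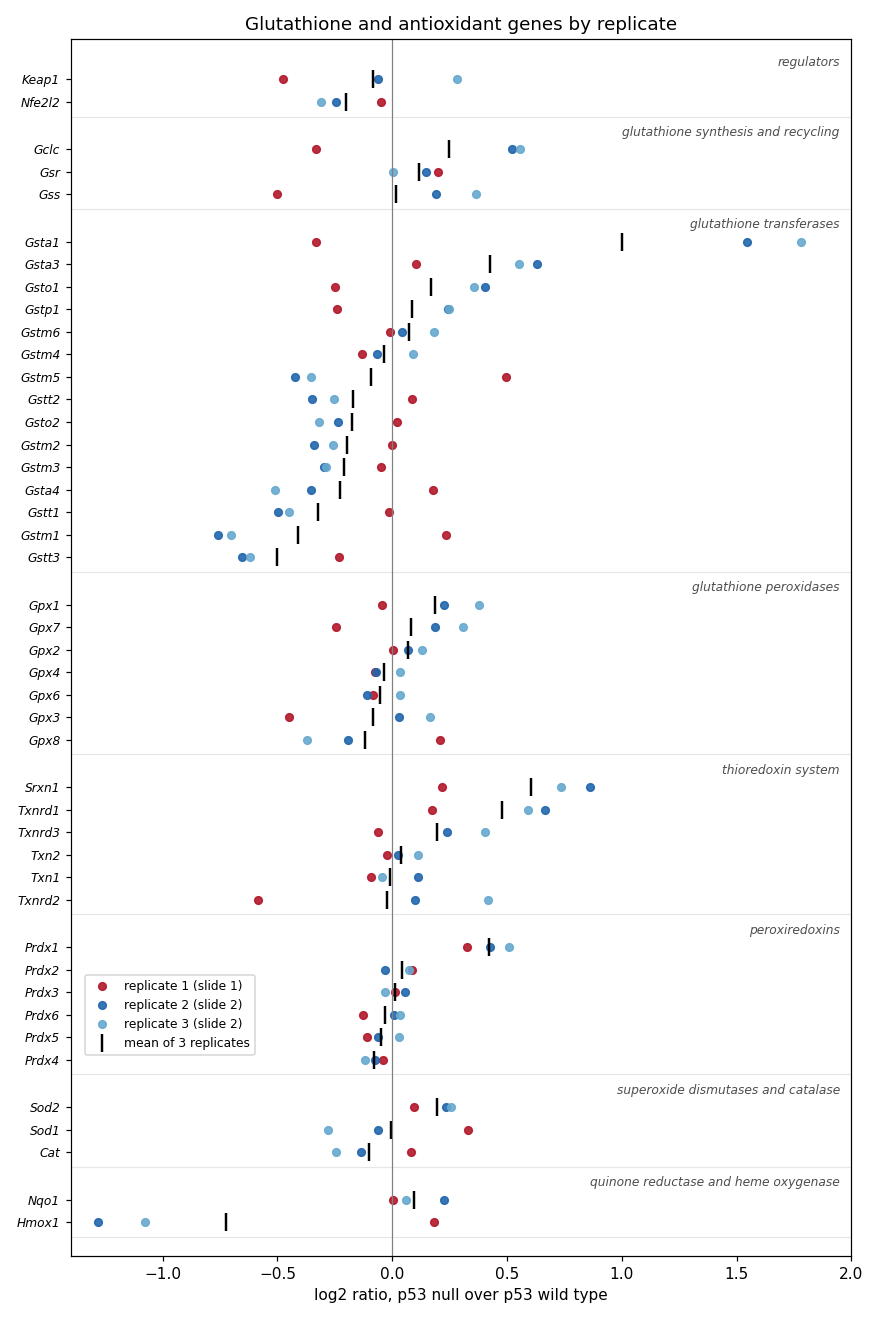
Log2 ratio of null over wild type for the 44 tested members, grouped by role, with a point for each of the 3 replicates and a bar at their mean. Gsta1 and Hmox1 lie farthest from 0, with means of 1.00 and −0.73, and their replicate 1 points lie on the other side of 0 from replicates 2 and 3.

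The 4 members that were higher with an unadjusted p under 0.05 were Prdx1, Srxn1, Txnrd1 and Gsta3. A promoter of each gene is shown because it held the core of the antioxidant response element, TGACNNNGC, or its reverse, GCNNNGTCA. Both strands were searched from 250 bases before to 50 bases after the annotated start. The sequences run 5′ to 3′ along the plus strand of GRCm38.p6, from RefSeq, with the match in capitals. Prdx1 lies at chr4:116685426-116685514, Srxn1 at chr2:152105542-152105570, Txnrd1 at chr10:82859074-82859162 and Gsta3 at chr1:21240424-21240512, and the Srxn1 match lies after its start site while the other 3 lie upstream.
Prdx1: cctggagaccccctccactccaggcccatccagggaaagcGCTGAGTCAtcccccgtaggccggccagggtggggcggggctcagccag
Srxn1: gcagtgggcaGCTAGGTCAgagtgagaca
Txnrd1: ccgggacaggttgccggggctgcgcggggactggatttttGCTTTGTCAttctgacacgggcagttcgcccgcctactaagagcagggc
Gsta3: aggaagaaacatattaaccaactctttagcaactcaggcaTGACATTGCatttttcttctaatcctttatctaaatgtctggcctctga
The core occurred in 12.4% of all 32851 promoters in the table. Of 43 members with a promoter it was present for 9, 20.9% against 14.0% of 27025 genes. Among tested genes with a promoter, it was present for 16.9% of 9592 genes, and for 15.7% of the 904 that were higher in null kidneys at an unadjusted p under 0.05. It stood in the promoters of 4 of 4 members that were higher by that rule and of 3 of the other 34 tested members, Nfe2l2, Gstm5 and Sod1. A gene was counted where any of its promoters held the core. Txnrd1 had 3 promoters, and only the promoter shown held it. This is a description of a handful of genes picked by their ratios, and a match is not a binding site. Matches to the p53 half-site were found for 4 members, Gsta3, Gstt3, Prdx4 and Txn2, 9.3% against 9.55% of genes. Pairs of half-sites were found for 0 members against 0.07% of genes.

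Prdx1, a peroxiredoxin that reduces peroxides with thioredoxin, had the smallest p of the group. Its normalised signal was 13947, 9755 and 10341 in null kidneys, against 11129, 7265 and 7273 in wild-type kidneys. Null kidneys were higher than their wild-type partners in every replicate, while the signals of the genotypes overlapped because replicate 1 was brighter in both genotypes. The ratios were 0.33, 0.43 and 0.51, with a mean of 0.42 ± 0.09 (SD, n = 3) and an unadjusted limma p of 0.00467. On single arrays the ratio ran from 0.17 to 0.54, above 0 on all 8.

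Srxn1 encodes sulfiredoxin, which restores over-oxidized peroxiredoxins. It gave signals of 699, 864 and 765 in null kidneys, against 601, 475 and 460 in wild-type kidneys, and the 2 genotypes did not overlap. The ratios of its brightest probe were 0.22, 0.86 and 0.73, with a mean of 0.60 ± 0.34 (SD, n = 3) and an unadjusted limma p of 0.0147. Replicates 2 and 3 had larger ratios than replicate 1. A pair of dimmer Srxn1 probes gave means of 0.12 and 0.01, and the mean over the 3 probes was 0.24, so the size rests on the brightest probe. The dimmer probes had a mean log2 brightness of 6.98 and 6.65, against 9.30 for the brightest. Ratios of such dim probes are compressed by the background offset.

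Txnrd1, the cytosolic thioredoxin reductase that recharges thioredoxin with NADPH, also did not overlap. Its signal was 7128, 9828 and 8869 in null kidneys and 6314, 6196 and 5893 in wild-type kidneys. The ratios were 0.17, 0.67 and 0.59, with a mean of 0.48 ± 0.26 (SD, n = 3) and an unadjusted limma p of 0.017. The mitochondrial Txnrd2 had ratios of −0.58, 0.10 and 0.42, and Txnrd3 had −0.06, 0.24 and 0.41. Both thus had a negative ratio in replicate 1 and positive ones in replicates 2 and 3. The thioredoxins themselves, Txn1 and Txn2, had means of −0.01 and 0.04.

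Gsta3, an alpha-class transferase, had signals of 902, 1990 and 2093 in null kidneys, against 841, 1285 and 1429 in wild-type kidneys. The genotypes overlapped, since replicate 1 was dimmer in both, and the null kidney was the higher of each pair. Its ratios were 0.10, 0.63 and 0.55, with a mean of 0.43 ± 0.29 (SD, n = 3) and an unadjusted limma p of 0.0294. The second probe had 0.03, 0.61 and 0.46, with a mean of 0.37 and an unadjusted limma p of 0.0525. In replicate 1 that probe was negative, at −0.12 and −0.19, where null RNA carried Cy3.

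**Figure D2:**
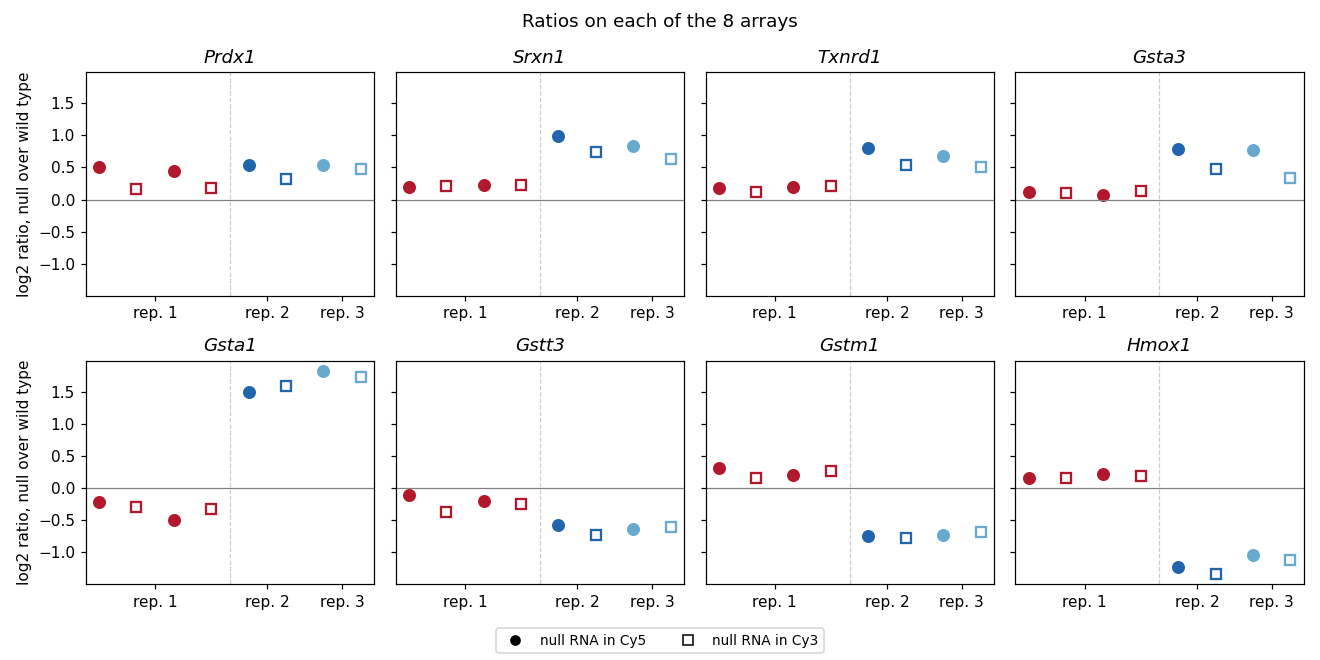
Log2 ratio of null over wild type on each of the 8 arrays for 8 members, filled where null RNA carried Cy5 and open where it carried Cy3, with the dashed line between slide 1 and slide 2. Prdx1, Srxn1, Txnrd1 and Gsta3 lie above 0 and Gstt3 below 0 on all 8 arrays, while Gsta1, Gstm1 and Hmox1 differ in sign between the slides.

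Gstt3, a theta-class transferase, was the one member lower at an unadjusted p under 0.05. Its signal was 1479, 2184 and 2105 in null kidneys and 1737, 3438 and 3235 in wild-type kidneys, with overlap because replicate 1 was dim in both. The ratios were −0.23, −0.65 and −0.62, with a mean of −0.50 ± 0.23 (SD, n = 3) and an unadjusted limma p of 0.0108. The neighbouring class member Gstt1 had ratios of −0.02, −0.50 and −0.45 (unadjusted limma p of 0.0595), and Gstt2 had a mean of −0.17. The values of the 8 arrays were also fitted together, with replicate entered as a random effect. The adjusted limma p was then 0.0322 for Gstt3, 0.0324 for Srxn1, 0.0417 for Txnrd1 and 0.0455 for Prdx1. By that fit 3 members were called higher, 6.82% against 2.4% of 11824 genes, and 1 lower, 2.27% against 2.78%. It uses a common correlation of 0.55 for the arrays of a replicate, for all genes. It leaves out the slide and a wild-type extract that replicates 2 and 3 may share, so its p-values may be too small. Median centring in place of loess raised the median of all genes to 0.15. The means were then 0.71 for Prdx1, 0.75 for Txnrd1, 0.66 for Gsta3 and −0.25 for Gstt3, and the smallest adjusted limma p among members was 0.525.

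The transferases spread to both sides of 0. Of 15 tested, 5 had positive and 10 negative mean ratios, with a median of −0.17. Median centring turned this split to 10 positive and 5 negative, with a transferase median of 0.06 beside the 0.15 of all genes. Gsta1, another alpha-class transferase, had the largest mean ratio of all members. Its signals were 311, 479 and 614 in null kidneys, against 391, 164 and 179 in wild-type kidneys, which overlapped. The ratios of −0.33, 1.55 and 1.78 gave a mean of 1.00 ± 1.16 (SD, n = 3) and an unadjusted limma p of 0.0944. The sign of the ratio differed between slide 1 and slide 2. The mean was 1.46 with a normexp offset of 0 and 1.54 with the scanner program's log ratio, and Gstt1 was at −0.54 and −0.56 in those settings.

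Gstm1, of the mu class, ran the other way on slide 2. It had 5221, 8025 and 8328 in null kidneys and 4433, 13577 and 13567 in wild-type kidneys, and its ratios were 0.24, −0.76 and −0.70. A second Gstm1 probe had −0.28, −0.31 and −0.12, with an unadjusted limma p of 0.0368. Gstm5 had 0.50, −0.43 and −0.35, Gsta4 0.18, −0.35 and −0.51, Gstm2 −0.00, −0.34 and −0.26, and Gstm3 −0.05, −0.30 and −0.29. All of these were negative in replicates 2 and 3. With median centring the means of Gstm1 and Gsta4 were −0.13 and −0.04, against −0.41 and −0.23 with loess, and Gstm2 and Gstm3 reversed to 0.057 and 0.011. Gsto1 had −0.25, 0.40 and 0.36 and Gstp1, the pi-class transferase, −0.24, 0.24 and 0.25. Paralogs of the alpha and mu classes are close in sequence, and probe sequences were not used here, so their signals may be shared.

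**Figure D3:**
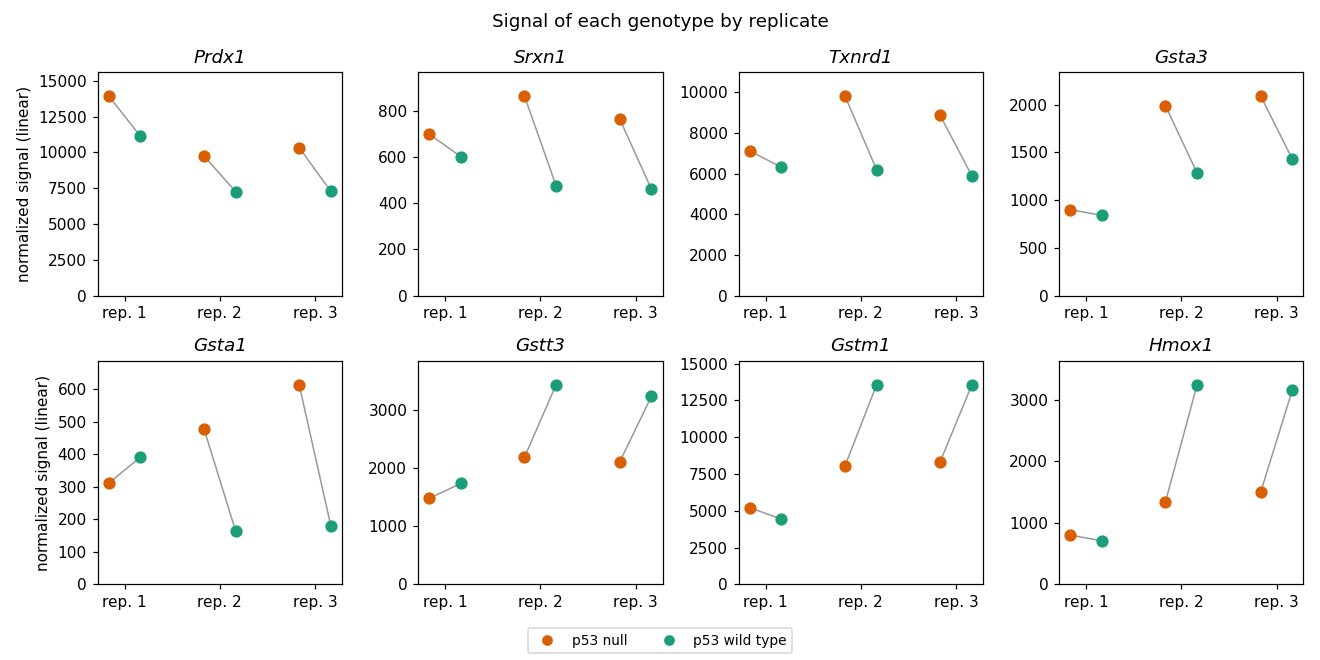
Normalized signal on a linear axis starting at 0 for the same 8 members, with null to the left of wild type in each replicate and a line joining the pair. Hmox1 was at 1337 and 1499 in null against 3250 and 3164 in wild-type kidneys in replicates 2 and 3, and at 803 against 708 in replicate 1.

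Hmox1, the inducible heme oxygenase that degrades heme to biliverdin, had the lowest mean of the group. Null kidneys had 803, 1337 and 1499 and wild-type kidneys had 708, 3250 and 3164, which overlapped. The ratios were 0.18, −1.28 and −1.08, with a mean of −0.73 ± 0.79 (SD, n = 3) and an unadjusted limma p of 0.084. The highest signals were those of wild-type kidneys in replicates 2 and 3. Nqo1, the quinone reductase often used as an NRF2 readout, had 0.00, 0.23 and 0.06.

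Neither regulator had an unadjusted limma p under 0.05. Nfe2l2 had ratios of −0.05, −0.25 and −0.31 (unadjusted limma p of 0.076) on its brighter probe and 0.05, −0.19 and −0.19 on the other. The mean of the brighter probe was −0.20 with loess and −0.0006 with median centring. Keap1 had −0.48, −0.06 and 0.28, so its replicates did not share a sign, and its mean of −0.08 turned to 0.18 with median centring.

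In synthesis and recycling, Gclc, the catalytic subunit, had signals of 1043, 1002 and 1050 in null kidneys, against 1313, 699 and 713 in wild-type kidneys. The null kidney was the lower of the pair in replicate 1 and the higher in replicates 2 and 3. Its ratios were −0.33, 0.52 and 0.56, and their mean was 0.25 with loess and 0.46 with median centring. Gss had −0.50, 0.19 and 0.37 and Gsr 0.20, 0.15 and 0.00. Gclm, the modifier subunit, was above background on 4 of 8 arrays in each genotype and was not tested. The other untested members were Gsta2 and Gstm7, likewise on 4 arrays, and Gstp3, Gstt4 and Sod3, on 0.

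No peroxidase, dismutase or other peroxiredoxin had an unadjusted limma p under 0.05. The 7 glutathione peroxidases had mean ratios between −0.12 for Gpx8 and 0.19 for Gpx1. Prdx2, Prdx3, Prdx4, Prdx5 and Prdx6 had means of 0.04, 0.01, −0.08, −0.05 and −0.03, although a second Prdx2 probe had −0.73 in replicate 1. Sod2, the mitochondrial superoxide dismutase, had 0.09, 0.24 and 0.26 (unadjusted limma p of 0.0601). Sod1 had 0.33, −0.06 and −0.28 and Cat, which splits hydrogen peroxide, 0.08, −0.14 and −0.25. With median centring all 7 peroxidases, all 6 peroxiredoxins and all 3 of Sod1, Sod2 and Cat were positive, with medians of 0.16, 0.25 and 0.30 beside the 0.15 of all genes. The 25 tested members not covered by the naming rule had means from −0.18 to 0.19, and their smallest unadjusted p was 0.14.

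**Figure D4:**
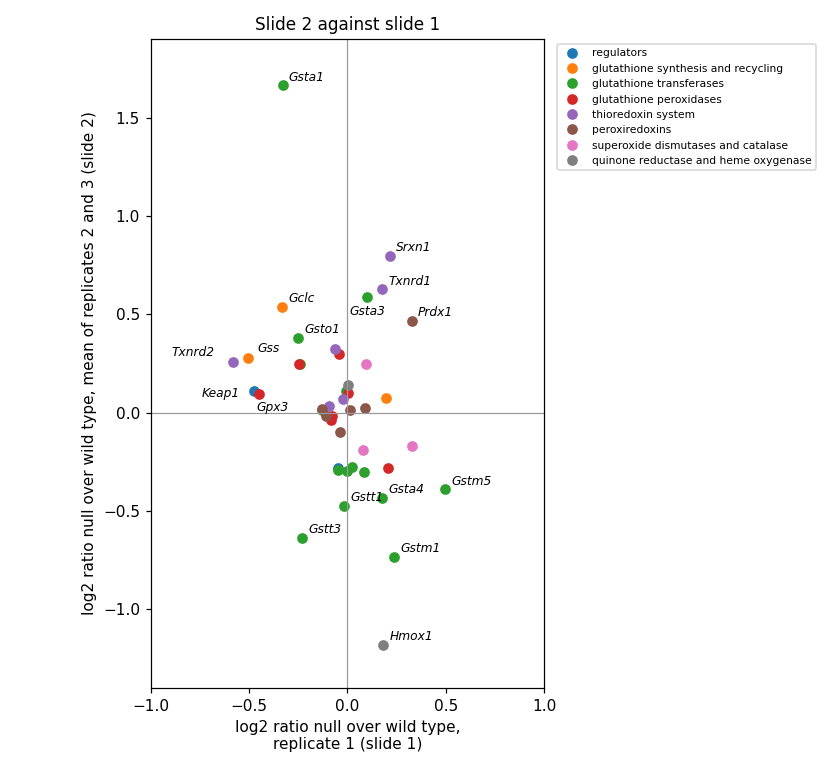
Log2 ratio of the 44 tested members in replicate 1 (slide 1, horizontal) against the mean of replicates 2 and 3 (slide 2, vertical), coloured by role. Members in the upper left and lower right differ in sign between slides, as Gsta1 at −0.33 and 1.66 and Hmox1 at 0.18 and −1.18 do.

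Between slides the members differed by far more than within them. The median absolute difference was 0.36 between replicate 1 and the mean of replicates 2 and 3, against 0.10 between replicates 2 and 3 and 0.04 between the 2 pairs of replicate 1. In 13 members replicate 1 was lower and replicates 2 and 3 higher in null kidneys, 29.5% against 25.9% of all genes. In 9 it was the reverse, 20.5% against 19.6%. The shares thus resembled those of all genes. Hmox1 had the most negative difference of slide 2 minus replicate 1, −1.36. Without replicate 1, limma called 14 members higher, 31.8% against 32.9% of all genes, and 14 lower, 31.8% against 27.2%. Gsta1 and Srxn1, with means of 1.66 and 0.80, were among the higher ones, and Hmox1 and Gstm1, with −1.18 and −0.73, among the lower ones. Without replicate 2 or without replicate 3, 0 were called. Those calls rest on 2 replicates of a single slide that may share a wild-type extract, so their p-values may be too small.

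**Figure D5:**
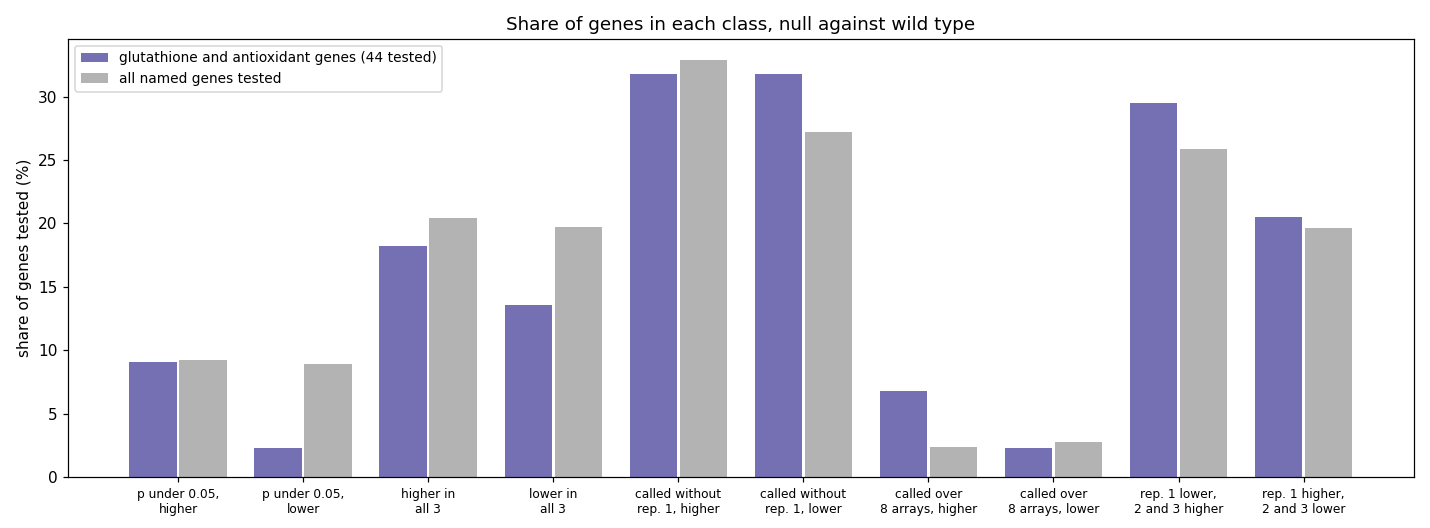
Percent of the 44 tested members (left bars) and of all named genes tested (right bars) in each class, for null against wild type. Members at an unadjusted p under 0.05 were 9.09% higher and 2.27% lower, against 9.24% and 8.93% of all genes.

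Genes around the pathway were counted at an unadjusted limma p under 0.05, where all genes gave 9.24% higher and 8.93% lower, and none was called after adjustment. In glutathione supply and turnover, 1 of 19 tested genes was higher (5.26%) and 3 lower (15.8%), with a median of −0.03. Abcc1, an exporter of glutathione conjugates, had a mean of −0.55, and Slc3a2, the heavy chain of cystine and amino acid exchangers, −0.56. Among 22 NRF2 partners and responsive genes, 2 were higher (9.09%) and 6 lower (27.3%). Bach1, a repressor at antioxidant response elements, had a mean of −0.36, the ferritin light chain Ftl1 −0.45 and Trim16 0.81. Maff, a small MAF partner of NRF2, had 0.06, −1.95 and −2.19 and Osgin1 −0.05, −1.37 and −1.29, both singled out after their values were seen. Of 12 NADPH supply genes, 2 were higher and 2 lower (16.7% each), with Taldo1 at 0.38, Nadk at 0.43 and Tkt at −0.29. Of 17 other glutathione-dependent enzymes, 1 was higher and 1 lower (5.88% each), with Glo1 at 0.20 and Ptges at −0.41. In 26 other redox proteins 3 were higher (11.5%) and 4 lower (15.4%), with P4hb at −0.59, Blvra at 0.37 and Pon2 at 0.70. The metallothioneins Mt1 and Mt2, metal-binding proteins rich in thiols, had means of −1.44 and −1.50, the most negative of that list, and were also singled out after their values were seen. None of 8 oxidant source genes had an unadjusted p under 0.05, and the lowest p there was 0.142 for Txnip.

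In the p53-linked list, 0 of 10 tested genes were higher and 3 lower (30.0%), against 9.24% and 8.93% of all genes at an unadjusted limma p under 0.05. Cdkn1a, the cell cycle inhibitor induced by p53, had ratios of −0.28, −1.24 and −1.16, Cpt1c a mean of −0.55 and Fdxr −0.28. Those 3 were lower in each replicate. The list as a whole had 5 positive and 5 negative means, with a median of 0.01, and 3 other genes were higher in each replicate.

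Other gene lists differed between the slides as well. The 20 hypoxia and glycolysis genes were listed because they had differed between replicates in earlier results of these data. Their values here thus describe that choice and are no separate finding. At an unadjusted limma p under 0.05, 17 were lower (85.0%, against 8.93% of all genes). Their median was −0.23 in replicate 1, against −1.82 on slide 2. Their summed signal lay between 126425 and 136400 in null kidneys and between 158336 and 495380 in wild-type kidneys. Of 15 proximal tubule markers 11 were tested, with medians of −0.11 on slide 1 and 0.33 on slide 2, and sums of 3314 to 4448 in null against 2695 to 4001 in wild-type kidneys. Slc5a12 and Slc13a1 were above background on 0 arrays. Of 11 liver markers 4 were tested, with medians of −0.03 and 0.78, sums of 2394 to 4667 in null against 1639 to 3000 in wild-type kidneys, and Fga and Ttr above background on 0 arrays. Of 13 macrophage and leukocyte markers 11 were tested, with medians of −0.02 and 0.50. All 11 had positive means. Aif1, Adgre1, Ptprc and Tyrobp, at an unadjusted limma p under 0.05 (36.4%, against 9.24% of all genes), were higher in each replicate. The other 7 were lower in replicate 1 and higher in replicates 2 and 3. The list had sums of 3445 to 6056 in null against 3388 to 4080 in wild-type kidneys. Of 17 erythroid markers 9 were tested, with medians of −0.31 and 0.13, sums of 131086 to 195863 against 93215 to 167625, and Rhag above background on 0 arrays. The erythroid medians cover ratios of both signs, with 5 positive and 4 negative means and a median size of 1.72 on slide 2. Hbb-bt had −0.31, 1.61 and 1.92 and Alas2 −0.49, 1.62 and 2.01. Hbb-y had 0.465, −2.44 and −2.76 and Hba-x −0.53, −1.90 and −2.15. These genes were singled out after their values were seen. Of 7 adrenal cortex markers 2 were tested, with medians of 0.07 and 0.99, sums of 1171 to 2687 against 905 to 1212, and Cyp11a1 and Cyp21a1 above background on 0 arrays. These ranges pool the replicates. For the proximal tubule, liver, erythroid and adrenal cortex lists, the null sum was below its wild-type partner in replicate 1. It was above its partner in replicates 2 and 3. Of the 11 embryonic kidney markers tested, 9 had negative means, with medians of −0.02 and −0.09, and sums of 28996 to 30852 in null against 30856 to 37423 in wild-type kidneys. Osr1, an early kidney mesenchyme factor, had −0.37, −0.59 and −0.38, with an unadjusted limma p of 0.00512. The part of these lists in the ratios of the antioxidant genes was not tested.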

How the data were processed

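Kidney RNA was labelled directly with Cy3 or Cy5 and hybridised to 2-colour Agilent arrays, per the labels' protocols. The deposited scanner files give the brightness of each spot and its surroundings as linear intensity, with quality flags. Agilent Feature Extraction 10.5.1.1 wrote them, per the file headers, while version 6.1 is named in the submitters' processing notes. Their own log10 ratio (red over green), deposited by the authors in the same files, served as an alternative. The deposited value table equalled that log10 ratio turned to null over wild type (correlation 1, largest difference 4.94e-06), with column medians from −0.00244 to 0.0111, which settles its scale, centring and direction.

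Median spot and median local background intensity were used, since no mean was among the columns used here. Background was corrected with normexp (offset 50) and loess was applied within arrays (limma 3.58.1, R 4.3.3), with control spots at weight 0 and outlier spots left out. Spots of a probe were averaged, then the arrays of each dye orientation within a replicate, then both orientations. Of 41174 probes, 20880 were tested, those with one genotype well above background in each replicate on 50% or more of its arrays, against 0 by limma (two-sided, 4.22 degrees of freedom). The number of arrays limits the precision. The offset compresses ratios of dim probes. Genotype signals come from quantile scaling of average brightness between arrays and differ between replicates by slide and scan as well, so that overlap of signals across replicates carries that difference.

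Probes were named by RefSeq accession through a GRCm38.p6 table (25097 of 41174). The headers give mm9 for the array design, whose coordinates were not used. A gene is represented by its brightest tested probe; 2 of 9 members with several tested probes, Prdx2 and Prdx6, had probes of both signs. Replicate values are given for Nfe2l2, Keap1, Nqo1, Hmox1, Gclc, Gclm, Srxn1, Txnrd1, Gsr, the 8 members with the largest mean ratio in each direction and members with an unadjusted p under 0.05; replicate values of Gstm5, Gsto1, Gstp1, Gss, Sod1, Cat and Txnrd2 were added after their values were seen. The members and lists were chosen with earlier results of these data known. The fit was tested on simulated data. P-values measure the spread between these samples only.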

Additional observations from a re-analysis of the deposited data

How the results depend on the processing

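No member was called by limma under the alternatives for background, scaling, filter, dye, pair and probe, or with 1 value per slide. With slide as a fixed block 16 were called (36.4%, against 43.2% of all genes), and the block leaves only the spread between replicates 2 and 3 as error. With 8 arrays and the replicate as a random effect 4 were called (9.09% against 5.18%), in a fit that leaves out the slide. Against 5 members at an unadjusted p under 0.05, there were 3 with median centring, 8 with no filter, 11 with null in Cy5 only, 9 with null in Cy3 only, 21 with the slide block, 0 with 1 value per slide and 11 with the random effect. Shares of all genes at that p are not given for these settings, so the counts cannot be read as particular to the members. Leaving out 1 replicate gave 0 to 28 called, 0 to 28 at that p, and a median ratio from −0.020 to 0.028. The 28 came without replicate 1, where 63.6% of members were called against 60.1% of all genes. Without replicate 2 or 3 there were 0. The median ratio of −0.02 was 0.20 with median centring, which moved the median of all genes to 0.15, and 0.035 with null in Cy3 only. Median centring reversed Gstm2 to 0.057, Gstm3 to 0.011 and Keap1 to 0.18. Null in Cy3 only reversed Keap1 to 0.11 and Nqo1 to −0.027. Leaving out 1 replicate gave Keap1 between −0.27 and 0.11, positive without replicate 1. The causes were not tested. Each ratio pairs the genotypes within an array. Of the values of named genes under alternatives, 302 kept direction and side of the threshold, 34 passed it newly and 6 reversed. Gclm, Gsta2, Gstm7, Gstp3, Gstt4 and Sod3 were limited by signal over background.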
